A study of Mus musculus with 22 samples.

Results

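MHC class II molecules carry peptides from the endosomes to the surface of macrophages, dendritic cells and B cells, where CD4+ T cells read them. The 8 genes described here cover the route from gene control to the loaded molecule, namely the class II chains H2-Aa, H2-Ab1 and H2-Eb1, the invariant chain Cd74, the transactivator Ciita, the peptide editors H2-DMa and H2-DMb1, and the lysosomal thiol reductase Ifi30. They were chosen by name, and every array probe whose RefSeq accession maps to these symbols was taken, which gave 9 probes for 8 of 22383 genes tested. Only H2-Ab1 has 2 probes, and all 9 were well above background on each of the 22 arrays.

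Expression was measured on Agilent 1-colour arrays in BMDM, that is, bone marrow cells turned into macrophages by culture with the growth factor M-CSF. The donors were male C57BL/6 mice of 10 to 14 weeks that were wild-type (wt), lacked the kinase MK2 (MK2-/-) or lacked MK2 together with MK3 (MK2/3-/-). Both kinases act downstream of p38 MAPK and shape the macrophage response to lipopolysaccharide (LPS), the endotoxin of Gram-negative bacteria. Each culture received 100 ng/ml LPS or medium alone for 360 min, with 3 LPS and 4 medium arrays of wt, 4 and 4 of MK2-/-, and 4 and 3 of MK2/3-/- BMDM. Levels are log2 units of the processed signal after quantile normalisation, so a step of 1 is a doubling, and they compare arrays for a given probe but not different probes.

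Class II genes respond to Ciita, which does not bind DNA itself but docks on the factors RFX, CREB and NF-Y at the X and Y boxes of class II promoters. Interferon-γ raises Ciita in macrophages, in part through the factor Irf1. In the endosome, cathepsins trim the invariant chain, H2-DM exchanges its last fragment for a peptide, and Ifi30 opens disulphide bonds of the antigens.

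Several facts about the arrays touch all results below. Mapkapk2, which encodes MK2, lay between 8.34 and 11.95 on the arrays of both knockout genotypes and between 10.77 and 15.33 on wt arrays, with every knockout array below every wt array of the same treatment. Mapkapk3, which encodes MK3, lay between 7.65 and 8.55 in MK2/3-/- LPS and between 10.94 and 11.40 in MK2/3-/- medium, against 11.92 to 13.42 in the other 2 genotypes, so the gap was much smaller in medium. The MK2-/- arrays labelled replicate 3, in LPS and in medium, had mean Y-linked levels of 2.07 and 2.33 against at least 6.86 on the other arrays, which goes against the label male, so results are also given without them. Each of the 3 slides carried a single genotype with both of its treatments, so for any comparison of genotypes the slide and the genotype cannot be told apart. Array names carry a replicate letter, a, b, c or e, and the 10 pairs of an LPS and a medium array with the same genotype and letter also had the same donor age. What the letter marks is not given in the sources used here, and 2 arrays lack a partner, the letter b array of wt medium and the letter c array of MK2/3-/- under LPS.

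The control elements of these genes can be read in their promoters. RefSeq windows of 300 bases (build GRCm38.p6, 250 bases before and 50 after the start of the transcript) matched 5 of the 8 genes with 6 windows. The Y box core ATTGG, the X box core AGNNACNGA, the interferon-γ activated site TTCNNNGAA and the interferon response core GAAANNGAA were searched on both strands, and no match overlapped another. Of all 32851 windows, 37.4% held the Y box core, 17.7% the X box core, 8.3% the activated site and 8.56% the response core, so a single match is common. Shown are the windows of 2 class II chains, of a peptide editor and of Ifi30, since their array values part below. H2-Aa lies at chr17:34287774-34288073 on the minus strand, H2-Eb1 at chr17:34305617-34305916 and H2-DMb1 at chr17:34152941-34153240 on the plus strand, and Ifi30 at chr8:70766614-70766913 on the minus strand. Each is printed 5′ to 3′ along the gene, with matches in capitals.
H2-Aa: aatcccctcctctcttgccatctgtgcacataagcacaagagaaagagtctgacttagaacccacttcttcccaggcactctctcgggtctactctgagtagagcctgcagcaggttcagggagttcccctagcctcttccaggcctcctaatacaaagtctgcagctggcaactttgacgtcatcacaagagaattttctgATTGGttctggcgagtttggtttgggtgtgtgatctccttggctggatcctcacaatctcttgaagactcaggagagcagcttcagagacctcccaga
H2-Eb1: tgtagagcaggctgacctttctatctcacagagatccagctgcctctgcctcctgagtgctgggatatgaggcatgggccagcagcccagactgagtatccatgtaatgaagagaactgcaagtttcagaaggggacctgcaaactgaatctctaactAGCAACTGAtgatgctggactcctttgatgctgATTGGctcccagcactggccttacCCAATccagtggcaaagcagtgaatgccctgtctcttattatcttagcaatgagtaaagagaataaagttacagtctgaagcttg
H2-DMb1: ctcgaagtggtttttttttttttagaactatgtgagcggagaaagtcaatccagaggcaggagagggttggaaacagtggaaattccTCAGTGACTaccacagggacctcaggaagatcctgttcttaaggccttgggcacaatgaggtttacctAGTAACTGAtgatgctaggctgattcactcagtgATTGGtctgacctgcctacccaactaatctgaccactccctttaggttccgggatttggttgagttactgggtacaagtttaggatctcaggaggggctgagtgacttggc
Ifi30: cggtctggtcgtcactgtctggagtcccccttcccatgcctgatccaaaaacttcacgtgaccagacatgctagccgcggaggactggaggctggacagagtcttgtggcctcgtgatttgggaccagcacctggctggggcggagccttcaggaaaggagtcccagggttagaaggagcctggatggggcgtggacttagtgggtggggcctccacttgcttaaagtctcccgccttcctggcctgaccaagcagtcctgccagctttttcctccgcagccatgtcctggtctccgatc
H2-Eb1 and H2-DMb1 shared the same arrangement, an X box core followed by a Y box core on the coding strand, with 24 bases between them in H2-Eb1 and 25 in H2-DMb1. Counted from -1 at the base before the start site, this Y box core ran from -59 to -55 in H2-Eb1 and from -61 to -57 in H2-DMb1. H2-Eb1 also held the Y box core on the opposite strand from -35 to -31, and H2-DMb1 a further X box core on the opposite strand from -163 to -155. In H2-Aa a Y box core stood at -48 to -44, and the letters of the X box core as searched were not in the window. The first H2-DMa window held no match and the second a Y box core from -198, while the window of Ifi30 held none of the 4 motifs.

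The class II chains and Cd74 were well expressed in every group and spread widely among arrays of the same group. The array-to-array SD within groups was 1.64 for H2-Aa, 1.55 for H2-Eb1, 1.43 for H2-Ab1 and 1.29 for Cd74 on the log2 scale, against a median of 0.43 over all genes. It was 0.95 for Ciita, 0.64 for H2-DMb1, 0.53 for H2-DMa and 0.44 for Ifi30. The spread of H2-Aa was at or above that of 99.4% of genes, and that of Ifi30 was near the middle (51.7%).

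H2-Aa encodes the α chain of the I-A molecule. In wt BMDM its level was 12.44, 14.97, 10.28 and 10.83 in medium (letters a, b, c and e) and 12.30, 10.42 and 10.81 under LPS (letters a, c and e). In MK2-/- BMDM it was 13.26, 14.29, 10.15 and 12.67 in medium and 13.68, 13.21, 10.44 and 12.88 under LPS (letters a, b, c and e in both). In MK2/3-/- BMDM it was 14.16, 14.79 and 11.46 in medium (letters a, b and e) and 13.69, 13.76, 10.84 and 12.16 under LPS (letters a, b, c and e). The highest array of all, 14.97, and nearly the lowest, 10.28, were both wt in medium, and all 6 groups overlapped.

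H2-Ab1 encodes the β chain that pairs with H2-Aa. Its level was 15.88, 17.72, 13.47 and 14.60 in wt medium and 15.63, 13.57 and 14.09 in wt LPS, in the same letter order. MK2-/- BMDM gave 16.58, 16.50, 13.82 and 16.01 in medium and 17.27, 17.00, 14.42 and 16.01 under LPS. MK2/3-/- BMDM gave 17.16, 17.50 and 15.10 in medium and 17.13, 16.96, 13.85 and 15.36 under LPS. The letter c array was again the lowest of every group that had it. The 2 probes of H2-Ab1 followed each other over the 22 arrays with r = 0.994 and a median gap of 0.30, and neither was called in any comparison.

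H2-Eb1, the β chain of the I-E molecule, is transcribed in C57BL/6 mice, which lack a working H2-Ea partner gene. Its level was 14.93, 17.12, 12.49 and 13.32 in wt medium against 14.26, 12.64 and 13.02 in wt LPS. It was 15.58, 16.16, 12.64 and 15.31 in MK2-/- medium against 15.87, 15.61, 12.86 and 14.94 in MK2-/- LPS, and 16.28, 16.91 and 14.39 in MK2/3-/- medium against 15.93, 15.91, 12.59 and 13.83 in MK2/3-/- LPS. The 5 letter c arrays, from 3 genotypes and both treatments, all lay from 12.49 to 12.86.

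Cd74 is the chaperone that fills the groove of new class II molecules and routes them to endosomes. Its level was 14.96, 16.50, 12.90 and 14.03 in wt medium and 14.78, 13.00 and 13.97 in wt LPS. MK2-/- BMDM gave 15.85, 16.57, 13.57 and 15.35 in medium and 16.10, 15.91, 13.50 and 15.28 under LPS, and MK2/3-/- BMDM gave 16.05, 16.56 and 14.30 in medium and 16.31, 16.07, 13.52 and 13.95 under LPS. As for the 3 chains, letter a or b was highest in 6 of 6 groups and letter c lowest in 5 of 5.

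**Figure D1:**
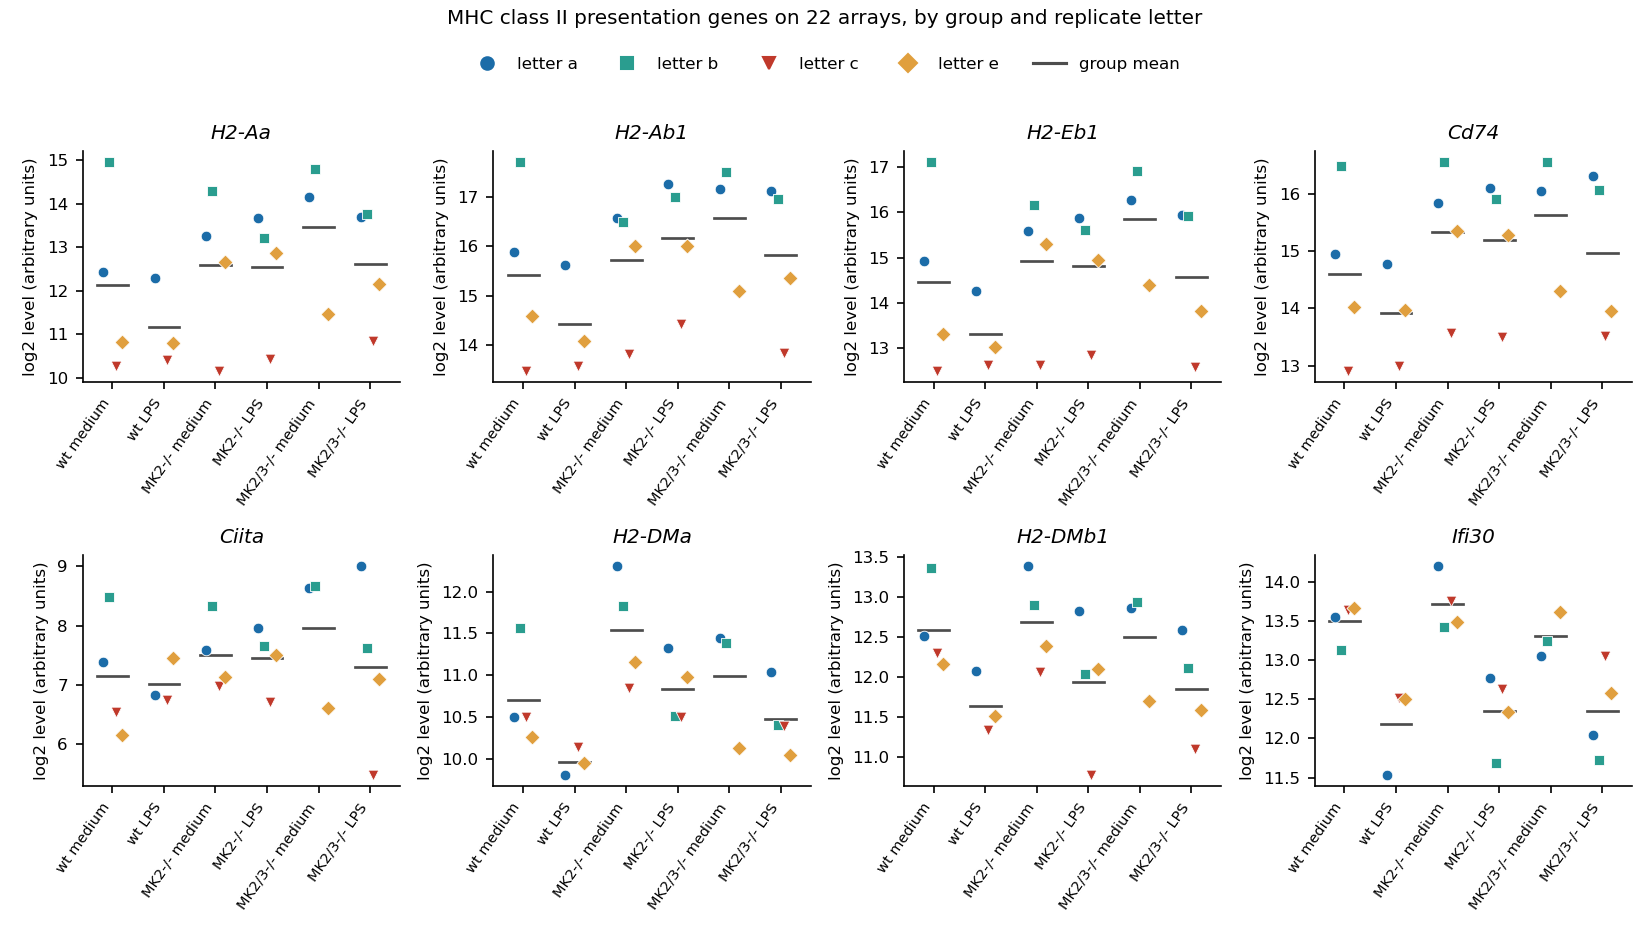
Log2 level (arbitrary units) of each gene on the 22 arrays, by genotype and treatment. Points are arrays, with colour and shape giving the replicate letter, and bars are group means. For H2-Aa, H2-Ab1, H2-Eb1 and Cd74 the letter c array (red) was lowest in all 5 groups that had it, whereas Ifi30 was lower under LPS in each genotype.

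Levels of these 4 genes followed the letter more than the genotype or the treatment. The mean over all letter b arrays exceeded that over all letter c arrays by 3.77 for H2-Aa (13.6-fold), 3.70 for H2-Eb1 (13.0-fold), 3.32 for H2-Ab1 (9.99-fold) and 3.02 for Cd74 (8.11-fold), each with n = 5 and 5 arrays. The letter c arrays spanned 10.15 to 10.84 for H2-Aa and the letter b arrays 13.21 to 14.97, with no overlap. Of the squared deviations from the group means, the letter as an additive term took 90.2% for Cd74, 89.6% for H2-Ab1, 86.5% for H2-Eb1 and 84.3% for H2-Aa, against a median of 22.9% over 21277 genes.

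The letter share was lower for the other genes, namely 73.5% for H2-DMb1, 56.8% for Ciita, 47.4% for Ifi30 and 40.8% for H2-DMa. Letter c was the lowest in 4 of 5 groups for Ciita and H2-DMb1, in 2 of 5 for H2-DMa and in 0 of 5 for Ifi30. The order of letters in Ifi30 ran the other way, with means of 12.64 for b and 13.12 for c. Ciita itself was 8.15 ± 0.48 (SD, n = 5) for b, 7.90 ± 0.81 (n = 6) for a, 6.99 ± 0.52 (n = 6) for e and 6.49 ± 0.59 (n = 5) for c, in the same order as H2-Aa (14.20, 13.25, 11.80 and 10.43).

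**Figure D2:**
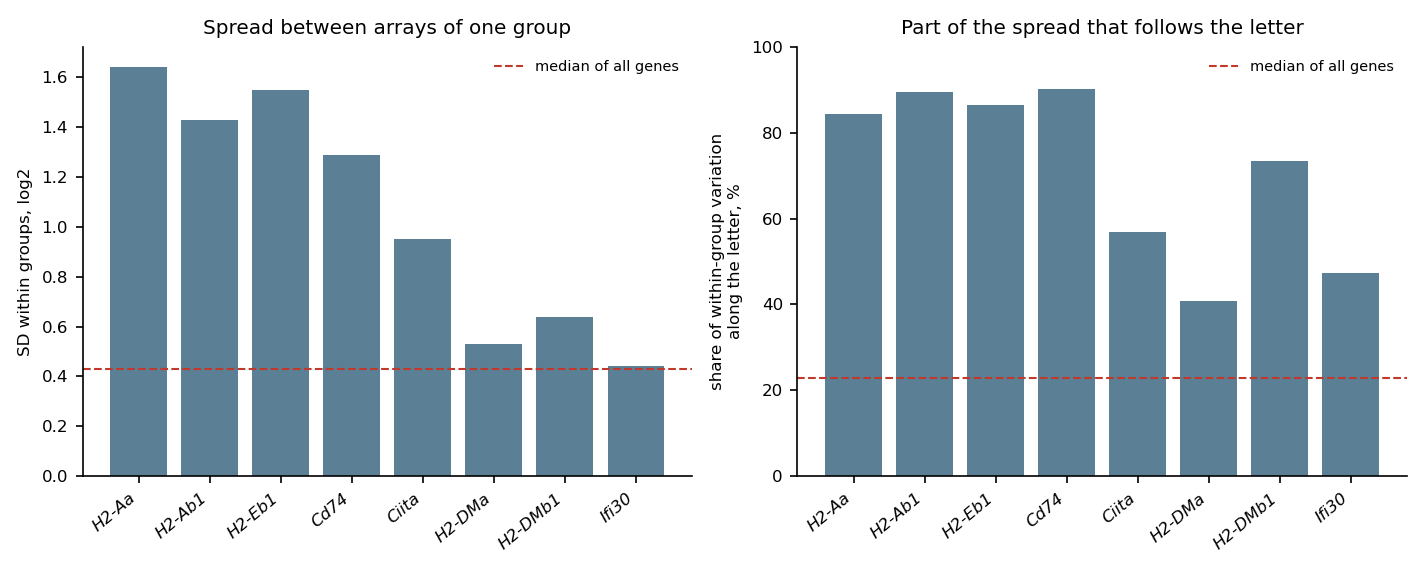
Left, SD of the log2 level between arrays of a group for each gene. Right, share of that within-group variation (%) that an additive letter term takes. Dashed lines are the medians over all genes, 0.43 and 22.9%. Cd74 and the class II chains stand highest in both panels.

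The 4 genes moved together also from array to array, with r between 0.97 and 0.98 and Spearman rho between 0.93 and 0.97 over the 22 arrays for their 6 pairings. These are descriptions over arrays that share letters and slides. After group means and letters were taken out, r was still between 0.78 and 0.94. Within groups, r with H2-Aa was 0.83 for Ciita, 0.89 for H2-DMb1, 0.74 for H2-DMa and -0.59 for Ifi30.

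Outside the 8 genes, the within-group pattern most like the mean of these 4 was that of Wdfy1, which encodes an endosomal FYVE-domain protein (r = 0.964 among 21269 genes over 22 arrays). It was followed by the lectin receptor gene Clec4b1 (0.942), the peptidase gene Amz1 (0.929), the splicing-related Luc7l3 (0.911) and the apoptosis gene Bid (0.892). On levels rather than deviations, Wdfy1 was again first (0.900), before Anpep (0.839), Trp63 (0.833), the integrin gene Itgax (0.83) and Crebbp (0.828). Wdfy1 lay between 12.90 and 13.88 on letter b arrays and between 10.55 and 11.98 on letter c arrays, with no overlap. Since Wdfy1 was picked for its likeness to genes that part by letter, this is no separate support for the letter pattern. The most opposite patterns, looked up after the values were seen, were those of Ogfod3 (r = -0.924) and the meiotic gene Syce2 (-0.916), which ran from 9.75 to 11.05 for b and from 11.68 to 12.82 for c.

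The first question was whether 360 min of LPS changed the class II route in each genotype. The chains, Cd74 and Ciita were not called in any of them, and the estimates were wide. In wt BMDM the difference of LPS minus medium was -0.95 ± 1.16 (SE) for H2-Aa, -0.99 ± 1.02 for H2-Ab1, -1.16 ± 1.10 for H2-Eb1, -0.68 ± 0.92 for Cd74 and -0.13 ± 0.68 for Ciita, with limma adjusted p between 0.436 and 0.901. The 95% interval for H2-Ab1 ran from -3.13 to 1.15, which is wide enough to hold a doubling and a fall of the same size. In MK2-/- BMDM H2-Ab1 differed by 0.45 ± 0.94, and in MK2/3-/- BMDM by -0.76 ± 1.02 (adjusted p = 0.743 and 0.582, limma).

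Part of the lower wt mean came from the single unpaired array. Without the 2 arrays that had no partner, the wt differences were -0.01 for H2-Aa, -0.22 for H2-Ab1, -0.27 for H2-Eb1 and -0.04 for Cd74. In the 10 pairs of the same genotype and letter, LPS minus medium averaged -0.10 ± 0.60 (SD) for H2-Aa, 0.08 ± 0.44 for H2-Ab1, -0.31 ± 0.42 for H2-Eb1, -0.13 ± 0.30 for Cd74 and 0.06 ± 0.69 for Ciita. H2-Aa was lower under LPS in 5 of 10 pairs, H2-Ab1 in 4, H2-Eb1 in 7, Cd74 in 7 and Ciita in 4, so no direction held throughout. The letter b pairs gave the lowest H2-Aa values, -1.08 in MK2-/- and -1.03 in MK2/3-/- BMDM.

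These signs also depended on the scaling. With each array scaled to its 75th percentile in place of quantile normalisation, the median of all genes moved from between -0.04 and 0.01 to between 0.28 and 0.30 in the 3 LPS comparisons. The mean pair difference then became 0.92 for H2-Ab1, 0.64 for Cd74, 0.41 for H2-Eb1 and 0.30 for H2-Aa, and H2-Ab1 and Cd74 were each lower in 0 of 10 pairs. No chain gene was called under that scaling either.

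Ifi30 behaved differently. In wt BMDM its level was 13.55, 13.13, 13.64 and 13.67 in medium (letters a, b, c and e) and 11.53, 12.52 and 12.50 under LPS (letters a, c and e). In MK2-/- BMDM it was 14.21, 13.43, 13.76 and 13.49 in medium and 12.77, 11.69, 12.63 and 12.34 under LPS, and in MK2/3-/- BMDM 13.06, 13.24 and 13.62 in medium (letters a, b and e) and 12.04, 11.72, 13.05 and 12.58 under LPS. Every LPS array lay below every medium array of its genotype, which held for 26.6% of all genes in wt, 23.5% in MK2-/- and 28.8% in MK2/3-/- BMDM.

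Ifi30 fell by 1.31 ± 0.33 (SE) on the log2 scale in wt BMDM, by 1.37 ± 0.30 in MK2-/- and by 0.96 ± 0.33 in MK2/3-/- BMDM (adjusted p = 0.00335, 0.00103 and 0.0215, limma with Benjamini-Hochberg adjustment over 22383 genes). These are levels of 0.403, 0.388 and 0.515 of the medium level. Without the 2 MK2-/- arrays of low Y-linked signal the differences were -1.31, -1.44 and -0.96, and each was still called (adjusted p = 0.00538, 0.00428 and 0.0288, limma). Ifi30 was thus the single gene of the 8 called in each genotype, 1 of 8, where 42.1% of all genes were called in wt (23.5% lower), 44.6% in MK2-/- (27.1% lower) and 48.2% in MK2/3-/- BMDM (27.9% lower). With 75th percentile scaling the differences were -0.84, -0.83 and -0.50 (adjusted p = 0.075, 0.0605 and 0.298), and the call was lost in all 3 genotypes, although Ifi30 remained lower in 10 of 10 pairs. Of the 6 macrophage markers tested, 3 were also called lower under LPS in wt, 4 in MK2-/- and 3 in MK2/3-/- BMDM, with Csf1r at -1.05, -1.01 and -1.04 and Lyz2 at -1.80, -1.35 and -1.31, whereas Fcgr1 was called higher in each (1.67, 1.66 and 1.58). Their summed level, which the brightest genes dominate, was 17.93 to 18.39 under LPS and 18.93 to 19.41 in medium. Of the 5 B cell markers, Cd79b alone was called lower (-2.62, -2.86 and -2.86), and it carried the list's sum (7.91 to 8.79 under LPS against 9.03 to 10.53), while the median of the list was 0.13, 0.14 and 0.16. The part of these markers in the Ifi30 levels was not tested. In MK2/3-/- BMDM the call also ended without LPS replicate 1 (-0.86), LPS replicate 2 (-0.75) or medium replicate 3 (-0.80).

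The peptide editors lay between the 2 patterns. H2-DMb1 was 12.51, 13.36, 12.30 and 12.16 in wt medium and 12.07, 11.34 and 11.51 in wt LPS. It was 13.39, 12.90, 12.06 and 12.38 in MK2-/- medium and 12.82, 12.03, 10.77 and 12.10 in MK2-/- LPS, and 12.86, 12.93 and 11.70 in MK2/3-/- medium and 12.58, 12.11, 11.10 and 11.59 in MK2/3-/- LPS. In wt every LPS array lay below every medium array, the closest being 12.07 and 12.16, as was so for 26.6% of all genes. In both knockouts the groups overlapped. The LPS difference was -0.94 ± 0.46, -0.76 ± 0.43 and -0.65 ± 0.46 (adjusted p = 0.113, 0.169 and 0.274, limma). Whether this probe also binds RNA of the close paralog H2-DMb2 was not tested.

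H2-DMa, the partner chain of H2-DMb1, was 10.51, 11.56, 10.51 and 10.27 in wt medium and 9.81, 10.15 and 9.96 in wt LPS. It was 12.31, 11.83, 10.85 and 11.16 in MK2-/- medium and 11.33, 10.52, 10.50 and 10.98 in MK2-/- LPS, and 11.45, 11.39 and 10.14 in MK2/3-/- medium and 11.04, 10.41, 10.40 and 10.05 in MK2/3-/- LPS. Here too every wt LPS array lay below every wt medium array (26.6% of all genes), and the groups overlapped in both knockouts. The LPS difference was -0.74 ± 0.39, -0.71 ± 0.36 and -0.52 ± 0.39, again with no call (adjusted p = 0.137, 0.121 and 0.293, limma). Within pairs both editors were lower under LPS in 10 of 10, by 0.57 ± 0.40 (SD) for H2-DMa and by 0.63 ± 0.36 for H2-DMb1, as was Ifi30 (mean difference -1.33 ± 0.34). Of all genes, 23.8% were lower in all 10 pairs. With 75th percentile scaling H2-DMa stayed at 10 of 10 pairs and H2-DMb1 at 7 of 10. With the letter as a fixed term in the model, chosen after the data were seen, H2-DMb1 passed the test in wt (-0.81) and MK2-/- BMDM (-0.76), at adjusted p = 0.0279 and 0.0229 (limma).

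**Figure D3:**
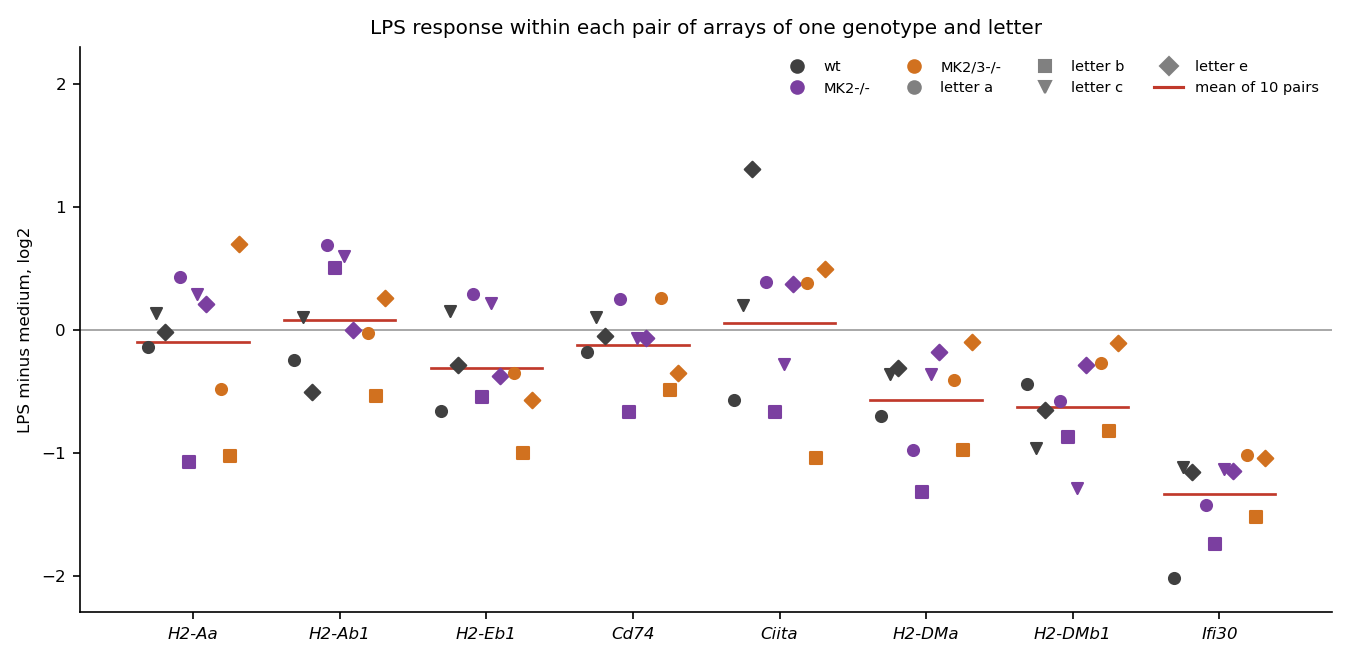
LPS minus medium (log2) for each of the 10 pairs of arrays with the same genotype and letter. Colours give the genotype, shapes the letter, and red bars the mean of the 10 pairs. Ifi30, H2-DMa and H2-DMb1 lie below 0 in all 10 pairs, whereas the chains, Cd74 and Ciita scatter on both sides of 0.

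The next question was whether loss of MK2, or of MK2 and MK3, changed these genes under LPS. The chains and Cd74 had higher means in both knockouts than in wt, but no gene of the 8 was called. MK2-/- exceeded wt by 1.37 ± 1.16 (SE) for H2-Aa, 1.75 ± 1.02 for H2-Ab1, 1.51 ± 1.10 for H2-Eb1 and 1.28 ± 0.92 for Cd74 (adjusted p between 0.262 and 0.454, limma), and MK2/3-/- exceeded wt by 1.43 ± 1.16, 1.40 ± 1.02, 1.26 ± 1.10 and 1.04 ± 0.92 (adjusted p between 0.341 and 0.436). The count of 0 of 8 stood beside 11.6% of all genes called for MK2-/- against wt, 23.6% for MK2/3-/- against wt and 13.5% for MK2/3-/- against MK2-/- BMDM.

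At an unadjusted p below 0.05, limma gave 1 of the 8 for MK2-/- against wt under LPS, H2-DMa, and 0 in the other 2 comparisons, beside 29.5%, 36.6% and 28.3% of all genes, and the methods' t-test after adjustment gave 0 in all 3. H2-DMa exceeded wt by 0.86 ± 0.39 in MK2-/- BMDM (95% interval 0.05 to 1.67, adjusted p = 0.147), with every MK2-/- array above every wt array, as was so for 11.8% of all genes. The wt LPS group lacks a letter b array. Within letters a, c and e MK2-/- was higher than wt in 3 of 3 for H2-Aa, H2-Ab1, H2-Eb1, Cd74 and H2-DMa. For Ciita, H2-DMb1 and Ifi30 this held in 2 of 3, and the H2-Aa gap at letter c was only 0.02. MK2/3-/- exceeded wt in 3 of 3 for H2-Aa, H2-Ab1, H2-DMa and Ifi30, and in 2 of 3 for H2-Eb1, Cd74 and H2-DMb1. Ciita did so in 1 of 3. Such counts were not made over all genes. The H2-Ab1 gap between MK2-/- and wt within letters ran from 0.85 to 1.92, with a mean of 1.47. With the letter as a fixed term, a setting chosen after the data were seen, it was 1.31 ± 0.38 and passed the test (adjusted p = 0.0382, limma). H2-Ab1 was the single one of the 8 to do so. The letter took 89.6% of its squared deviations, so this result is no separate support for the gap. With estimated array weights 1 of the 8 passed as well, again H2-Ab1. In the main fit 11.6% of all genes were called in this comparison, and the shares under these settings are not given here.

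Without the MK2-/- arrays of low Y-linked signal, which carry letter c, the gap between MK2-/- and wt under LPS was 2.33 ± 0.99 for H2-Ab1 and 2.08 ± 1.08 for H2-Aa (adjusted p = 0.131 and 0.213, limma). On those 2 arrays H2-Ab1 was 13.82 and 14.42. On the letter c arrays of wt and MK2/3-/- BMDM, whose Y-linked signal was ordinary, it was 13.47, 13.57 and 13.85. Whether the low Y-linked signal has a part in the class II levels was not tested. MK2/3-/- differed from MK2-/- under LPS by no more than 0.36 in size for any of the 8 genes, with an interval from -2.33 to 1.63 for H2-Ab1 and from -0.65 to 0.63 for Ifi30.

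**Figure D4:**
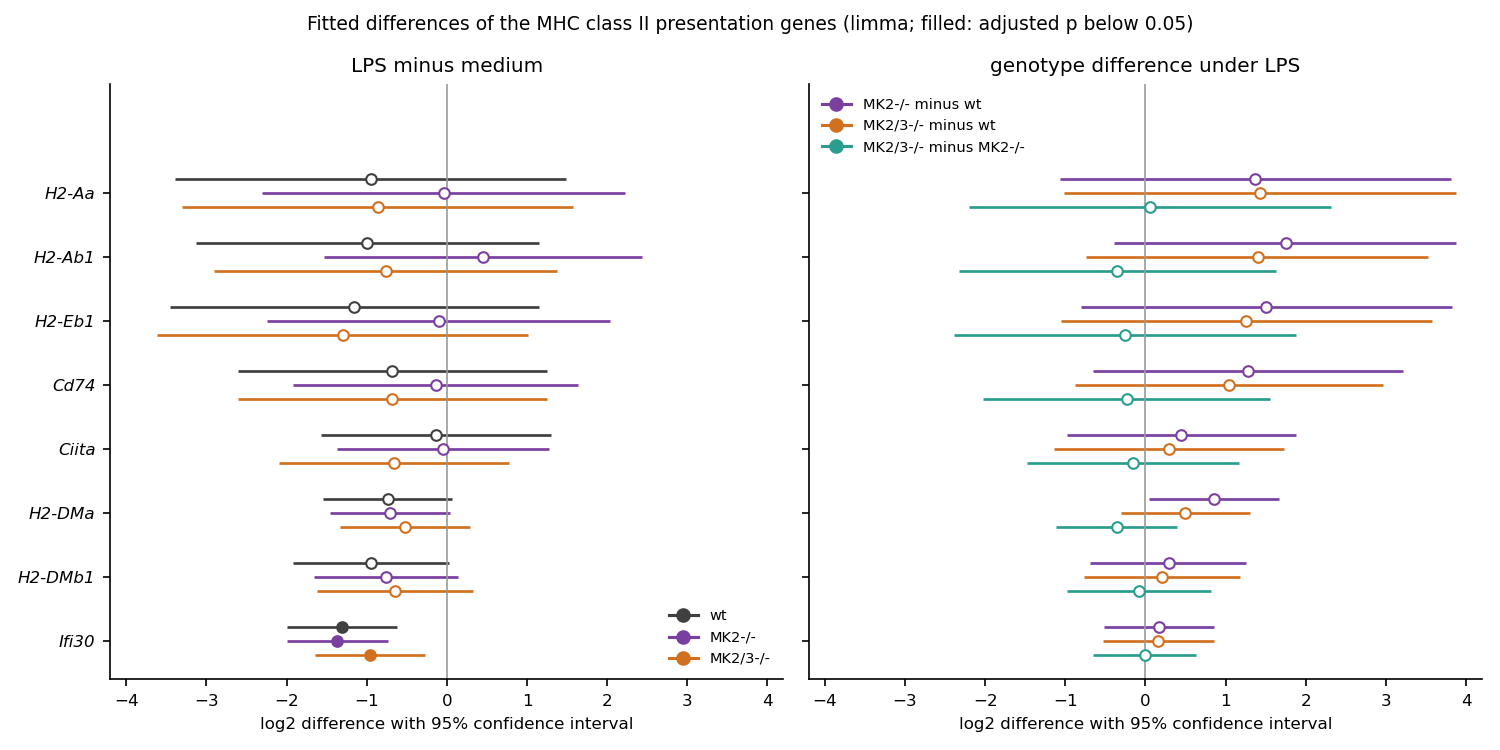
Fitted log2 differences with 95% confidence intervals, for LPS minus medium in each genotype (left) and for genotypes under LPS (right). Filled points passed the test (adjusted p below 0.05) and open points did not. The 3 filled points are Ifi30 after LPS, and the intervals of the chains reach across 0 in every comparison.

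In medium no gene of the 8 was called either, where 8.82% of all genes were called for MK2-/- against wt, 2.02% for MK2/3-/- against wt and 2.82% for MK2/3-/- against MK2-/- BMDM. H2-Ab1 differed by 0.31 ± 0.94, 1.17 ± 1.02 and 0.86 ± 1.02 in these comparisons. At an unadjusted p below 0.05 limma gave 1, 0 and 0 of the 8, beside 25.9%, 16.9% and 15% of all genes, the 1 being H2-DMa again (0.82 ± 0.36), and the methods' t-test after adjustment gave 0 in each. Within letters, MK2-/- minus wt was positive in 4 of 4 for H2-DMa and Cd74, in 3 of 4 for H2-Ab1 and H2-Eb1 and in 2 of 4 for H2-Aa. Here too, such counts were not made over all genes. At letter b, which the wt LPS group lacks, MK2-/- minus wt was -0.67 for H2-Aa, -1.23 for H2-Ab1 and -0.97 for H2-Eb1. These comparisons share their arrays with the LPS responses above.

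No difference in the LPS response between genotypes was called for any of the 8 genes by the interaction test, whose intervals were wide for the chains. For Ifi30 the response in MK2-/- minus that in wt was -0.05 ± 0.45 (95% interval -0.99 to 0.89), and in MK2/3-/- minus wt it was 0.35 ± 0.47 (-0.62 to 1.33, adjusted p = 0.984 and 0.883). For H2-Ab1 it was 1.44 ± 1.39 and 0.23 ± 1.44 (adjusted p = 0.847 and 0.986, limma). Of all genes, 0% (0 of 22383) were called in the first of these tests, 0.679% in the second and 0.067% for MK2/3-/- against MK2-/- BMDM. At an unadjusted p below 0.05 limma gave 0 of the 8 genes in each, beside 7.53%, 11.4% and 8.6% of all genes, 1685 of them in the first, where the methods' t-test gave 9 after adjustment.

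The median over the 8 genes was -0.95, -0.12 and -0.72 for LPS against medium in wt, MK2-/- and MK2/3-/- BMDM, beside medians of -0.04, -0.01 and 0.01 over all genes. Under LPS it was 1.07 for MK2-/- minus wt, 0.77 for MK2/3-/- minus wt and -0.20 for MK2/3-/- minus MK2-/-, beside -0.03, -0.02 and -0.06. These medians rest mainly on the 4 genes of widest spread.

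The other genes of the route, 33 by name and 32 tested, changed in both directions after LPS, with 12 higher and 12 lower in wt, 10 and 11 in MK2-/- and 9 and 13 in MK2/3-/- BMDM. Of all genes, 18.6% were called higher and 23.5% lower in wt, 17.5% and 27.1% in MK2-/-, and 20.2% and 27.9% in MK2/3-/- BMDM, and the counts of the lists below stand beside these shares. Of the 12 factors known to act on Ciita, 9 were higher and 1 lower in wt, 8 and 2 in MK2-/-, and 8 and 2 in MK2/3-/- BMDM, with medians of 1.46, 1.33 and 1.16 beside -0.04, -0.01 and 0.01 over all genes. Irf1, an activator of Ciita, rose by 1.89, 1.76 and 2.26. The kinase gene Jak2 rose by 3.86, 3.93 and 3.74, and Socs1, an inhibitor of the same receptor pathway, by 6.05, 6.91 and 5.55. Prdm1, a repressor of Ciita, rose by 1.53, 1.58 and 0.82, while the receptor gene Ifngr1 fell by 1.91, 2.05 and 2.72. Ciita differed by -0.13, -0.05 and -0.66 in the same arrays and was not called.

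Ciita lay between 5.48 and 9.01 over the 22 arrays. It was 7.39, 8.48, 6.55 and 6.15 in wt medium and 6.83, 6.75 and 7.45 in wt LPS, 7.58, 8.33, 6.99 and 7.14 in MK2-/- medium and 7.96, 7.66, 6.71 and 7.51 in MK2-/- LPS, and 8.63, 8.66 and 6.61 in MK2/3-/- medium and 9.01, 7.63, 5.48 and 7.10 in MK2/3-/- LPS. LPS and medium overlapped in each genotype.

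Of the 7 factors that bind class II promoters, 2 were higher and 3 lower after LPS in wt, 2 and 3 in MK2-/-, and 1 and 3 in MK2/3-/- BMDM, beside 42.1%, 44.6% and 48.2% of all genes called in either direction. The RFX subunit genes Rfxap and Rfxank fell, with changes of -2.27, -3.11 and -3.33 for Rfxap and -1.20, -2.09 and -2.46 for Rfxank, as did the NF-Y subunit gene Nfyc (-1.02, -1.03 and -1.24). Creb1 rose by 1.23, 2.10 and 1.87. Rfx5, the third RFX subunit, differed by 0.27, 0.74 and 0.51 and was not called. Under LPS, Rfxap and Rfxank were also lower in the knockouts than in wt, with differences of -1.36 in MK2-/- and -1.29 in MK2/3-/- BMDM for Rfxap and -0.76 and -1.38 for Rfxank, and Rfxap was no longer called in either with 75th percentile scaling or with normexp background correction. The Rfxap differences were then -0.62 and -0.41 with 75th percentile scaling and -0.36 in each knockout with normexp, so their size depends on the processing.

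The endosomal proteases and their inhibitor Cst3 were lower after LPS in 6 of 7 in each genotype, beside the 23.5%, 27.1% and 27.9% of all genes that were. In wt, MK2-/- and MK2/3-/- BMDM the changes were -1.33, -1.34 and -1.30 for Ctsd, -1.18, -1.02 and -1.17 for Lgmn, -0.93, -1.28 and -1.29 for Ctsl, and -0.52, -0.53 and -0.81 for Ctss, the main invariant chain protease of dendritic cells and B cells. Ctsz differed by 0.35, 0.40 and 0.12 and was not called. With another scaling most of these calls were lost, for with 75th percentile scaling 0, 1 and 0 of the 7 were lower, Ctsz was higher in all 3, and the signs of Ctss and Ctsb (and of Cst3 in MK2/3-/- BMDM) turned without a call.

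Among the paralogs, H2-DMb2 fell by 1.43 in wt and by 1.63 in MK2/3-/- BMDM, and H2-Oa, H2-Ob and H2-Eb2 were not called after LPS. The H2-DMb2 call ended in wt with 75th percentile scaling (-1.02) and in MK2/3-/- BMDM with normexp background correction (-0.14). The size of the H2-DMb2 change thus depends on the background correction. H2-Ob, part of the H2-O inhibitor of H2-DM, was higher in MK2-/- than in wt BMDM under LPS by 1.18. Of the ubiquitin ligase genes that turn class II over, Marchf1 rose by 1.75 in wt BMDM and differed by 0.71 and -0.10 in the knockouts. The difference of that response was not called (-1.04 and -1.85 against wt), although Marchf1 was lower in MK2/3-/- than in wt BMDM under LPS (-1.56). With 75th percentile scaling Marchf1 was called higher after LPS in MK2-/- BMDM as well (1.03, adjusted p = 0.0382, limma). Marchf8 fell by 0.92 in wt and 0.85 in MK2/3-/- BMDM. Usf1, which binds a Ciita promoter, was the single gene of the 32 with a called difference of response, -1.77 for MK2/3-/- against wt, lost with 75th percentile scaling.

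Since class II is also a mark of dendritic cells and B cells, marker lists were read beside it. All 6 macrophage markers tested, Adgre1 and Csf1r among them, were above background on the 22 arrays. Of the 7 dendritic cell markers, Flt3 was above background on 21 arrays, Clec9a on 15 and Xcr1 on 4, while Zbtb46, Itgax, Ccr7 and Siglech were on all 22. Xcr1 was 5.06 to 6.25 in MK2/3-/- LPS and at most 4.36 elsewhere, and Clec9a 6.81 to 7.08 there and at most 5.69 elsewhere. Under LPS both were called higher in MK2/3-/- than in wt BMDM (2.54 and 2.98) and than in MK2-/- BMDM (2.72 and 2.90), as was Flt3 against MK2-/- (1.60), and none of the 7 was called for MK2-/- against wt. These counts of 2, 3 and 0 of 7 stood beside 23.6%, 13.5% and 11.6% of all genes called. Xcr1 entered the test through only 4 arrays above background, where the filter asked for 3. Its differences are therefore taken against signal at or near background, down to 1.99, and their size means little. Clec9a was likewise low in the groups it was compared with, at 3.09 to 5.08 in wt LPS and 2.03 to 5.06 in MK2-/- LPS. The size of its differences is thus also uncertain. After LPS Ccr7 rose by 4.57, 6.43 and 5.44 and Zbtb46 by 3.71, 3.33 and 5.16 in wt, MK2-/- and MK2/3-/- BMDM, whereas Siglech, much the brightest of the list, fell by 0.73, 0.67 and 0.74. Within groups, r with the mean of the 4 class II genes over 22 arrays was 0.83 for Itgax, 0.70 for Ccr7, 0.63 for Siglech, 0.24 for Zbtb46, 0.12 for Clec9a, 0.04 for Flt3 and -0.16 for Xcr1. The summed level, mostly Siglech, gave r = 0.74 and ranged from 15.71 to 16.39 in wt LPS, 15.93 to 17.27 in wt medium, 15.75 to 16.72 in MK2-/- LPS, 16.09 to 16.84 in MK2-/- medium, 16.17 to 16.75 in MK2/3-/- LPS and 16.50 to 17.15 in MK2/3-/- medium. Itgax, which encodes CD11c, was 12.51 to 13.48 on letter b arrays and 10.63 to 11.57 on letter c arrays.

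All 4 stromal markers were above background on each array. Within groups, r with the class II mean was -0.56 for Col1a1, -0.50 for Col1a2, -0.32 for Col3a1, -0.21 for Pdgfrb and -0.49 for their sum, with summed levels from 9.35 to 15.54 in MK2/3-/- medium, 10.40 to 14.88 in MK2/3-/- LPS, 10.56 to 14.69 in MK2-/- medium, 11.49 to 14.22 in MK2-/- LPS, 11.57 to 16.66 in wt medium and 13.51 to 15.90 in wt LPS. Col1a1 ranged from 9.59 to 14.99 on wt arrays and from 4.89 to 13.83 on knockout arrays, which overlap. Of the 5 B cell markers Pax5 was above background on 17 arrays and Ms4a1 on 21, and the summed level of the list gave r = -0.25. The T and NK cell list (4 tested, Ncr1 above background on 3 arrays) gave r = 0.11, with sums of 10.94 to 11.49 in wt LPS, 9.78 to 10.67 in wt medium, 11.81 to 12.32 in MK2-/- LPS, 11.06 to 12.26 in MK2-/- medium, 10.87 to 11.95 in MK2/3-/- LPS and 10.49 to 11.07 in MK2/3-/- medium. These sums were mostly Cd3e, much the brightest of the list. Under LPS Cd3e was 11.61 to 12.07 in MK2-/- and 10.76 to 11.31 in wt BMDM, whereas Cd3d, Cd247 and Ncr1 overlapped. By gene, r was 0.11 for Cd3e, 0.10 for Cd3d, -0.04 for Ncr1 and -0.16 for Cd247. The sum of the neutrophil list (4 tested) gave r = 0.60, but its genes parted. Their r was 0.76 for S100a9, 0.46 for S100a8, 0.10 for Mpo and -0.16 for Elane. The sums were 12.74 to 13.53 in wt LPS and 11.58 to 12.93 in wt medium. They were 12.04 to 13.44 in MK2-/- LPS and 11.81 to 13.24 in MK2-/- medium. In MK2/3-/- BMDM they were 11.76 to 13.57 under LPS and 12.61 to 13.94 in medium. The part of these cells in the class II levels was not tested, and in whole cultures fewer cells of a type and less RNA per cell cannot be told apart.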

How the data were processed

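The authors hybridised RNA of the 22 cultures to Agilent 1-colour arrays and scanned them with Agilent Feature Extraction 11.0.1.1, and the deposited scanner tables hold the processed signal as a background-corrected intensity per spot. The deposited value table of the authors holds log2 values of the same arrays, centred on each probe (column medians -0.074 to 0.083), and was used as an alternative. Control spots (3671 of 62976) and outlier flags were left out, spots of a probe were averaged, and log2 values were quantile normalised. Of the 55681 probes, 29150 had a RefSeq accession and 3735 a GenBank accession, and the others were left out. Among those with an accession, the filter kept the 28103 that 3 or more arrays measured well above background. They stand for 22383 genes, each by its brightest probe, named through RefSeq (GRCm38.p6 table) or left under their accession. The median processed signal per array was 32.7 to 108, 61.7 to 83% of probes were well above background, no spot was saturated, and the number of arrays limits the precision. Group means of all 22 arrays were fitted with limma 3.58.1 (R 4.3.3), with Benjamini-Hochberg adjustment over all genes and a threshold of 0.05, and the code was tested on simulated data. The methods state independent experiments. The 8 genes and all lists were chosen with earlier results of these data known. All 8 genes are named, listed genes are given by list, and the 5 genes most like the mean of H2-Aa, H2-Ab1, H2-Eb1 and Cd74 by Pearson's r are named on each scale. Alternatives covered scaling, background correction, the probe filter, array weights, the deposited values, the methods' t-test, the letter as a block, and leaving out arrays. Single results for some listed genes are not reported here.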

Additional observations from a re-analysis of the deposited data

How the results depend on the processing

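Of the 96 gene-by-comparison differences, 3 were called, all Ifi30 after LPS, and 3 of the other 93 were called under at least 1 alternative, namely H2-DMb1 after LPS in wt and MK2-/- BMDM and H2-Ab1 for MK2-/- against wt under LPS. With 75th percentile scaling 0 of the 8 genes were called after LPS in wt, 0 in MK2-/- and 0 in MK2/3-/- BMDM. In MK2/3-/- BMDM the count was also 0 with only the groups compared (Ifi30 adjusted p = 0.0609, limma) and by the methods' t-test, and 0 to 1 when 1 array at a time was left out. With the letter as a fixed term, chosen after the data were seen, it was 2 in wt and 2 in MK2-/- BMDM. It was 1 for MK2-/- against wt under LPS, which was also 1 with array weights. In the main fit 42.1%, 44.6% and 11.6% of all genes were called in these comparisons, and shares under these settings are not given here. The cause of these changes in the count was not tested. The sources do not pair the samples: deviations of same-letter arrays correlated above 0.1 in 7 of 10 pairs (-0.085 to 0.419), and in 7 of 10 by replicate number (-0.085 to 0.369). Most pairs are the same by letter and by number, so these counts cannot tell the pairings apart. The pairs that differ gave 0.419, 0.158 and 0.091 by letter, and 0.176, 0.267 and -0.035 by number. With a replicate block by letter, Ifi30 differed by -1.33, -1.37 and -0.99 (adjusted p = 0.00134, 0.000371 and 0.00965, limma), and no other call among the 8 genes changed.

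The median difference over the 8 genes moved by more than 0.64 in these cases. That yardstick is the SD of the median level of the 8 genes between arrays of a group, not a spread of differences. After LPS in wt it was -0.25 without the arrays that have no partner, and -1.25 to -0.25 when 1 array was left out. After LPS in MK2-/- BMDM it was 0.55 with array weights, and -0.86 to 0.31 with 1 array left out. Under LPS it was 1.43 with array weights for MK2/3-/- against wt. In medium it was 1.09 for MK2-/- against wt without the unpartnered arrays (0.05 to 1.09 with 1 array left out), 0.50 to 1.61 for MK2/3-/- against wt, and -0.11 to 1.05 for MK2/3-/- against MK2-/-. For the difference of LPS responses it was 1.12 with array weights for MK2-/- against wt, -0.59 to 0.50 for MK2/3-/- against wt and -1.25 to 0.02 for MK2/3-/- against MK2-/-. The arrays that moved these medians most were wt medium replicate 2, MK2-/- medium replicate 3 and MK2/3-/- medium replicate 3.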
